A study of Drosophila melanogaster with 12 samples.

Results

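The genes for odorant-binding proteins of Drosophila melanogaster were followed through 12 whole-body RNA-seq libraries. Every gene whose symbol begins with Obp and a digit was taken, which gave 51 of the 14001 genes in the table, and the symbol in the table equals the current symbol for all 51. Resistant adults and sensitive adults were compared, as were resistant third-instar larvae and sensitive third-instar larvae, with 3 libraries in each of the 4 groups. The resistant strain is labelled as resistant to avermectins, a class of insecticides whose target in nerve and muscle is the glutamate-gated chloride channel, and the sensitive strain as wild type. The labels give neither the sex nor the exact age of the animals, nor the genetic background of either strain, nor whether animals were exposed to an avermectin before sampling. They do not say either whether the 3 libraries of a group came from separate cultures, so each p-value reflects the scatter of these 12 libraries, part of which may be technical.

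Odorant-binding proteins are small secreted proteins with conserved cysteines that fold around a hydrophobic pocket. In the fly antenna, support cells release them into the fluid that bathes the dendrites of olfactory neurons, where they bind odorants and pheromones. Many members of the family are made elsewhere: in taste organs, in glia, in fat body, and in the male reproductive tract, from which several pass to the female in the seminal fluid. Most of the genes lie in tandem clusters, and the number in a gene's name is its cytological position. A subfamily called Plus-C carries extra cysteines and has longer proteins.

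The 51 genes lay on chromosome arms 2R (29 genes), 3R (12), X (6), 2L (2) and 3L (2) of the dm6 assembly. The 9 genes of cluster 56 spanned 2R:19697723-19868714, the 4 genes of cluster 19 spanned X:20415744-20420979, and the 4 genes of cluster 99 spanned 3R:29671657-29716896. The 5 genes numbered 83 form a pair, Obp83a and Obp83b, 931 bases apart, and a trio of Obp83cd, Obp83ef and Obp83g that starts 131316 bases further on. Within the trio, Obp83cd and Obp83ef lie on opposite strands and overlap by 92 bases, and Obp83g follows 636 bases from Obp83ef. Annotated proteins ran from 117 residues in Obp22a and Obp51a to 259 in Obp73a, and the 13 Plus-C members had a median of 199 residues, against 144.5 for the other 38.

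Some limits of the annotation touch single genes. Obp50b and Obp50c share the same span and had identical values in every library, so their reads cannot be told apart. Obp57d shares exon sequence with Cpr57A, and Obp73a with Ogdh, on the same strand. Exons of 10 members overlap a gene on the other strand, Obp44a, Obp56e, Obp83cd, Obp83ef and Obp99c among them, and the sources used here do not say whether counting used the strand.

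Values are FPKM, which scale fragment counts by transcript length and library total and allow levels of different genes to be set side by side. Steps between low values gave an estimated 11380000 to 12360000 reads per library, at which 1 read of a member is worth 0.052 to 0.23 FPKM. Replicate 1 of the sensitive adults held the lowest of the 3 sensitive adult values in 28 of the 33 members tested in adults. Its FPKM summed over all genes was also the lowest of the 12 libraries. The sum was 775870, against 889724 and 914046 in sensitive adult replicates 2 and 3. Among resistant adults, replicate 3 was lowest in 22 of the same 33. Whole bodies were sampled, so fewer cells of a type and less RNA per cell cannot be told apart in any value given here.

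Adults expressed more members than larvae, but the family took a larger share of the FPKM in larvae, through Obp99b. The group mean was at least 1 FPKM for 35 members in resistant adults, 33 in sensitive adults, 22 in resistant larvae and 21 in sensitive larvae. In 9 members (Obp46a, Obp47b, Obp50a, Obp50e, Obp57e, Obp58b, Obp58d, Obp85a and Obp93a) no group mean reached 1 FPKM, and Obp85a was listed at 0 in every library but 1, where it had 0.18 FPKM. Plus-C genes made up much of this low set: 8 of the 13 had no group mean at 1 FPKM, and Obp49a was the Plus-C member with the highest level. Summed over the 51 genes, the family took 0.587 ± 0.057% of all FPKM in resistant adults and 0.574 ± 0.098% in sensitive adults, against 1.022 ± 0.238% in resistant larvae and 3.468 ± 0.44% in sensitive larvae (SD, n = 3 libraries per group).

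Obp99b made up most of the larval totals. It took 0.672 ± 0.212% of all FPKM in resistant larvae and 2.967 ± 0.433% in sensitive larvae (SD, n = 3), which is 64.9 ± 6.35% of the family's FPKM in resistant larvae and 85.4 ± 1.82% in sensitive larvae. It was the second most abundant of all genes in each sensitive larval library (rank 2 in all 3), while its ranks in resistant larvae were 19, 12 and 33. Without Obp99b, the other members took 0.551 ± 0.057% of the FPKM in resistant adults and 0.56 ± 0.092% in sensitive adults, against 0.35 ± 0.035% in resistant larvae and 0.501 ± 0.029% in sensitive larvae.

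**Figure D1:**
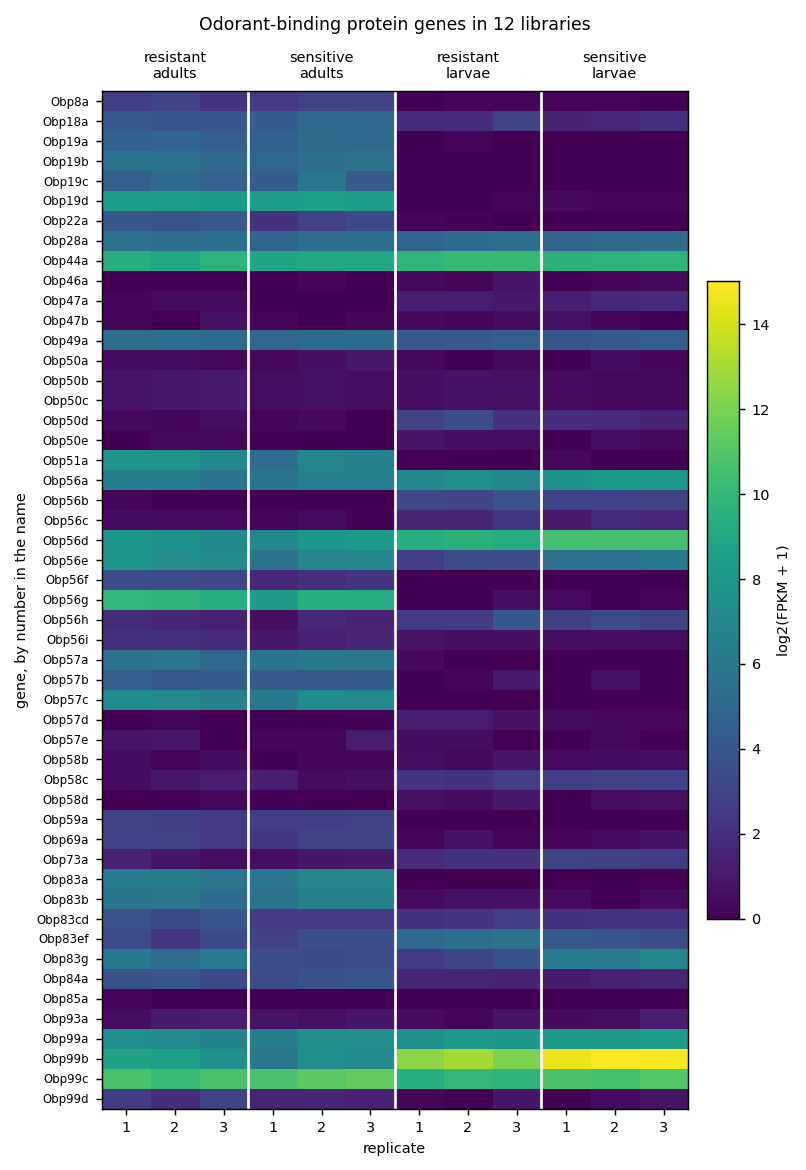
Expression of the 51 odorant-binding protein genes, 1 row per gene in order of the number in its name and 1 column per library, coloured by log2(FPKM + 1). Obp99b in larvae is the brightest row, the Obp19 and Obp57 clusters are dark in larvae, and most Plus-C rows (Obp46a, Obp47b, Obp50a to Obp50c) are dark throughout.

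Stage sorted the family into an adult set and a larval set that held in both strains. Levels on the log2(FPKM + 1) scale were compared with limma, with Benjamini-Hochberg adjustment over all genes tested and a threshold of 0.05; a gene was tested where at least 3 of the libraries compared had 1 FPKM or more. Adults minus larvae, 25 of the 39 members tested in the resistant strain were higher and 11 lower, where 52.1% of all genes tested were called, 34.7% higher and 17.4% lower. In the sensitive strain 20 of 38 were higher and 14 lower, where 68.9% of all genes were called, 55.7% higher and 13.2% lower. The median log2 difference of the tested members was 2.12 in the resistant strain and 1.0 in the sensitive strain, beside medians over all genes of 0.28 and 0.62 for the resistant and the sensitive strain. Because 17 members in each strain passed the expression filter through their adult libraries alone, and 4 through their larval libraries alone, these had to differ and the counts are a description of where each gene is expressed. Of the 18 resistant-strain members at 1 FPKM or more in some library of both stages, 8 were higher in adults, 7 lower and 3 not called; of the 17 in the sensitive strain, 3 were higher, 10 lower and 4 not called.

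The adult set, higher in adults than larvae in both strains, held 20 members, where 28.4% of all genes tested in both strains were so called. It included the whole of cluster 19 and Obp57a, Obp57b and Obp57c. Obp19d, found in adult smell and taste organs, had 326, 302 and 286 FPKM in resistant adults and 312, 349 and 323 in sensitive adults, and no larval library exceeded 0.28 FPKM. Its neighbours were adult genes at lower levels. Obp19a had 24.1, 29.4 and 22.0 FPKM in resistant adults and 24.6, 35.6 and 29.6 in sensitive adults. Obp19b had 50.1, 48.4 and 35.2 FPKM in resistant adults and 32.5, 41.5 and 47.6 in sensitive adults. Obp19c had 22.0, 36.8 and 25.3 FPKM in resistant adults and 20.7, 58.9 and 17.8 in sensitive adults. The highest value of these 3 genes in a larval library was 0.13 FPKM. All 4 genes of the cluster shared a stage pattern over a span of 5236 bases. Obp57c had 156, 135 and 91.1 FPKM in resistant adults and 66.3, 156 and 142 in sensitive adults and was listed at 0 in all 6 larval libraries. Its adjacent neighbours Obp57b and Obp57a, 48 and 13 bases further along the same strand, were adult genes as well. Obp57a had 50.1, 57.7 and 32.9 FPKM in resistant adults and 53.2, 66.2 and 61.5 in sensitive adults, with a single larval library above 0, at 0.31 FPKM. Obp57b had 22.3, 17.9 and 20.3 FPKM in resistant adults and 18.2, 17.1 and 19.4 in sensitive adults, against 0, 0.21 and 1.10 in resistant larvae and 0, 0.58 and 0 in sensitive larvae. By contrast, Obp57d and Obp57e, taste genes tied to host-plant acids in other Drosophila species, lie 42057 bases away, with a highest value of 1.33 FPKM in any library.

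Antennal members belonged mostly to the adult set: of 8, a set put together with values of these data known, 6 were higher in adults and 1 lower in each strain, beside 34.7% of all genes higher in the resistant strain and 55.7% in the sensitive strain. As 5 of the 8 passed the filter in each strain through their adult libraries alone, this count describes where they are expressed. Obp83a and Obp83b, paired genes of the pheromone-sensing and other sensilla of the antenna, were adult genes at comparable levels. Obp83a had 75.5, 78.5 and 57.6 FPKM in resistant adults and 57.9, 111 and 111 in sensitive adults, with 0 listed in all larvae. Obp83b had 54.8, 61.1 and 36.7 FPKM in resistant adults and 48.7, 94.4 and 97.0 in sensitive adults, with at most 0.66 in larvae. Other antennal members were adult genes at lower levels. Obp84a had 11.98, 15.1 and 8.96 FPKM in resistant adults and 9.65, 12.4 and 15.4 in sensitive adults, against 1.98, 1.94 and 1.87 in resistant larvae and 1.12, 1.76 and 2.02 in sensitive larvae. Obp69a, tied to responsiveness to other flies, had 7.06, 6.73 and 4.67 FPKM in resistant adults and 4.42, 7.45 and 7.66 in sensitive adults, and at most 0.66 in larvae. Obp59a, which serves humidity sensing, had 7.47, 6.25 and 4.80 FPKM in resistant adults and 5.73, 5.93 and 6.73 in sensitive adults and was listed at 0 in all larvae. All 3 genes lay below Obp83a and Obp83b in each adult group. Obp28a, an abundant antennal protein, was in neither set: it was called in neither strain, with 49.5, 40.3 and 44.2 FPKM in resistant adults and 26.5, 37.2 and 42.0 in resistant larvae, and 28.2, 40.6 and 46.2 in sensitive adults and 27.1, 33.0 and 37.1 in sensitive larvae. Its adult and larval ranges overlapped in both strains.

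Seminal fluid members were adult genes too: of 7, a set put together in the same way, all 7 were higher in adults of the resistant strain and 5 of the 6 tested in the sensitive strain, beside the same 34.7% and 55.7% of all genes. Here 6 of the 7 in the resistant strain, and 5 of the 6 in the sensitive strain, passed the filter through adult libraries alone, so their direction was fixed by it. Obp56g, a seminal protein needed for the mating plug, was among the most abundant members in adults, with 967, 886 and 619 FPKM in resistant adults and 282, 658 and 667 in sensitive adults, against at most 0.53 FPKM in any larval library. Obp51a had 239, 220.5 and 128 FPKM in resistant adults and 39.7, 112 and 94.6 in sensitive adults, and a single larval library above 0, at 0.23 FPKM. Obp56e was the only seminal member above 1 FPKM in larvae of either strain, with values given with the strain differences. Obp49a, which in taste organs lets bitter compounds suppress the response to sweet, was higher in adults in both strains (log2 difference 1.15 ± 0.21 in the resistant strain, adjusted p = 0.000915, limma); the call in the sensitive strain, at 0.91 ± 0.18, was lost after median-of-ratios scaling (adjusted p = 0.347).

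The adult set also took in genes of low or moderate level. Obp18a had 17.5, 15.5 and 16.1 FPKM in resistant adults and 19.5, 33.4 and 32.1 in sensitive adults, against 2.56, 2.91 and 6.60 in resistant larvae and 1.66, 2.31 and 3.15 in sensitive larvae. Obp8a, a seminal fluid member, had 5.94, 7.65 and 3.79 FPKM in resistant adults and 4.76, 6.63 and 7.55 in sensitive adults, and at most 0.15 in larvae. Obp49a had 45.9, 44.2 and 38.4 FPKM in resistant adults and 29.5, 38.9 and 38.1 in sensitive adults, against 17.5, 17.4 and 21.6 in resistant larvae and 14.9, 19.5 and 21.1 in sensitive larvae. For each of these genes the adult and larval libraries were apart in both strains.

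The larval set, higher in larvae in both strains, held 11 members, where 8.69% of all genes tested in both strains were so called. Obp99b led it with 409, 361 and 187 FPKM in resistant adults and 5460.4, 7999 and 4232 in resistant larvae, and 57.9, 173 and 145 in sensitive adults and 24897, 33183 and 30779.6 in sensitive larvae. The log2 difference, adults minus larvae, was -4.23 ± 0.34 in the resistant strain (adjusted p = 1.49e-06, limma) and -8.01 ± 0.38 in the sensitive strain (adjusted p = 3.01e-07). Obp56d, found in antennae and in other organs, came next: it had 232, 213 and 126 FPKM in resistant adults and 129, 240.2 and 265 in sensitive adults, against means of 698 ± 98.8 in resistant larvae and 1523 ± 43.9 in sensitive larvae (SD, n = 3). Larval values of both genes lay above all adult values of the same strain. Obp56b was a larval gene at a lower level, with 8.64, 7.74 and 13.4 FPKM in resistant larvae and 7.28, 7.13 and 6.95 in sensitive larvae and a single adult library above 0, at 0.16 FPKM. Obp56h, tied to male courtship, was higher in larvae at a modest level, with 2.87, 2.06 and 1.48 FPKM in resistant adults and 5.30, 5.31 and 16.9 in resistant larvae, and 0.55, 2.16 and 1.81 in sensitive adults and 6.32, 9.78 and 7.55 in sensitive larvae. Obp56a had 89.5, 86.9 and 52.1 FPKM in resistant adults and 54.4, 92.5 and 97.4 in sensitive adults, against higher larval values that are given with the strain differences. The other larval members were Obp47a, Obp50d, Obp56c, Obp58c, Obp73a and Obp83ef. The call of Obp56a in the resistant strain was lost without resistant larva replicate 1 (adjusted p = 0.0502), without resistant larva replicate 2 (0.131) or without resistant adult replicate 3 (0.0532), and that of Obp83ef in the sensitive strain without sensitive larva replicate 1 (0.152), sensitive larva replicate 2 (0.109) or sensitive adult replicate 1 (0.0806).

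Cluster 56 was divided between the stages. Of its 9 genes, Obp56f and Obp56g were adult in both strains, Obp56a, Obp56b, Obp56c, Obp56d and Obp56h were larval in both, Obp56e was higher in adults of the resistant strain and not called in the sensitive strain, and Obp56i was higher in adults of the resistant strain and too low to be tested in the sensitive strain. Obp56d and Obp56e, which lie 8429 bases apart, lay on different sides of the stage comparison in the resistant strain. Obp56e and Obp56f lie 462 bases apart on the same strand, and Obp56f was listed at 0 in every larval library while Obp56e was not.

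Obp44a, Obp99a and Obp99c were highly expressed in both stages and belonged to neither the adult nor the larval set. Obp56d and Obp99b of the larval set also had means above 100 FPKM in every group. Obp44a, a protein of glia, had 695, 496 and 847 FPKM in resistant adults and 467, 483 and 533 in sensitive adults, against means of 1007 ± 99.9 in resistant larvae and 851 ± 51.0 in sensitive larvae (SD, n = 3). It was lower in sensitive adults than in sensitive larvae (log2 difference -0.78 ± 0.15, adjusted p = 0.00187, limma), and the same comparison in the resistant strain gave -0.60 ± 0.26 (adjusted p = 0.0752). Obp99c was the most abundant member in adults, with 1575 ± 391 FPKM in resistant adults and 2243 ± 532 in sensitive adults. Its adult level in the resistant strain exceeded the larval one by a log2 difference of 0.87 ± 0.28 (adjusted p = 0.021, limma), a call lost after median-of-ratios scaling (0.154) and without resistant larva replicate 1 (0.0888) or resistant adult replicate 1 (0.092). In the sensitive strain the stages overlapped and the difference was 0.26 ± 0.22 (adjusted p = 0.32), or -0.44 after scaling (adjusted p = 0.172). Obp99a had 176, 139 and 103 FPKM in resistant adults and 78.4, 168 and 165 in sensitive adults, and its adults minus larvae difference in the sensitive strain was -1.17 ± 0.28 (adjusted p = 0.00576, limma).

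**Figure D2:**
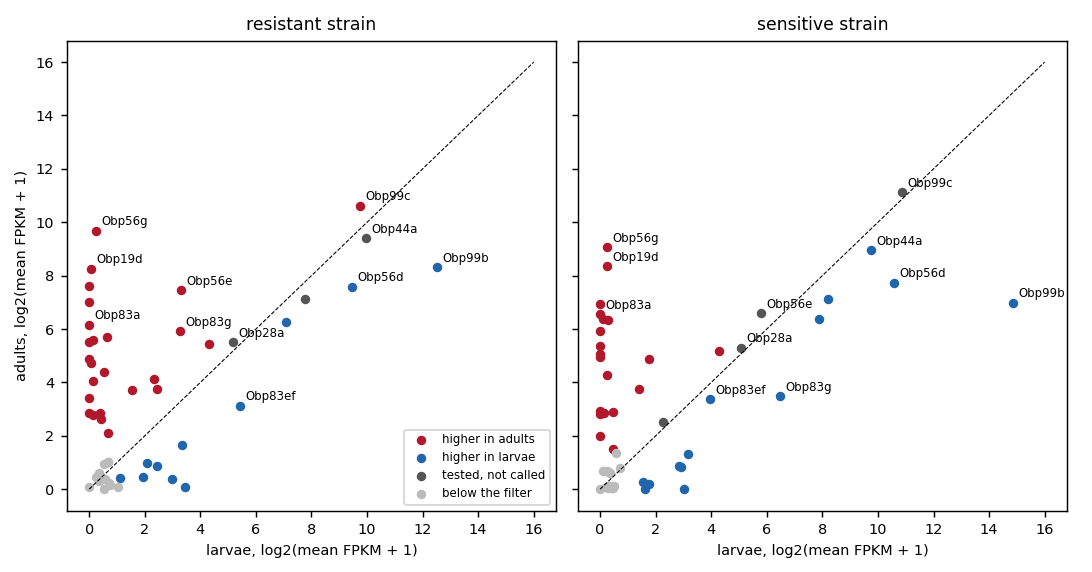
Mean expression of each member in larvae (horizontal) and adults (vertical), as log2(mean FPKM + 1), in the resistant strain (left) and the sensitive strain (right), with the line of equal level dashed and colours for the limma call. A column of adult members stands at the left edge of both panels, Obp99b lies far to the right, and Obp83g is above the line in the resistant strain and below it in the sensitive strain.

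In larvae, most strain differences of the family were reductions in the resistant strain. Resistant minus sensitive, 2 of the 21 members tested were called higher and 8 lower, whereas 58.7% of all genes tested were called and 48.8% were called higher (limma, Benjamini-Hochberg over all genes tested); 9.84% of all genes were called lower. The median log2 difference was 0.03 over the members and 0.49 over all 11055 genes tested. Median-of-ratios scaling, which brings the median of all genes to 0.03, left 1 member higher and 10 lower, where 30.3% of all genes were called and 19% were lower. Genes are described as rising or falling here only where the call was made both without and with this scaling, which held for 1 member that rose and 8 that fell, where 11.3% of all genes rose and 9.84% fell by the same rule.

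The abundant members of cluster 99 were lower in resistant larvae. Obp99b, also called turn on sex-specificity and known as a product of male fat body in adults, had 5460.4, 7999 and 4232 FPKM in resistant larvae, against 24897, 33183 and 30779.6 in sensitive larvae. The resistant and sensitive larval libraries did not overlap, and the log2 difference was -2.37 ± 0.28 (adjusted p = 0.000335, limma). Obp99c, in the same cluster, fell to 669, 1014 and 871 FPKM in resistant larvae, against 1831, 1629.5 and 2067 in sensitive larvae (log2 difference -1.13 ± 0.22, adjusted p = 0.00243). The third expressed gene of that cluster, Obp99a, had 168, 256 and 234 FPKM in resistant larvae and 286, 279 and 314 in sensitive larvae, without overlap; it was not called without scaling (log2 difference -0.44 ± 0.21, adjusted p = 0.0899) and was called lower with it (-0.99, adjusted p = 0.00586).

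In cluster 56, Obp56a, Obp56d and Obp56e fell in resistant larvae, and the other 3 genes tested there were not called. Obp56d had 656, 810.2 and 626 FPKM in resistant larvae, against 1477, 1564 and 1527 in sensitive larvae, a log2 difference of -1.13 ± 0.20 (adjusted p = 0.00145, limma). Obp56e, a member also found in seminal fluid, had 5.89, 10.2 and 10.6 FPKM in resistant larvae and 48.8, 47.7 and 65.2 in sensitive larvae, a log2 difference of -2.50 ± 0.22 (adjusted p = 8.14e-05). Neither gene had overlapping strains. Obp56a gave a log2 difference of -0.83 ± 0.23 (adjusted p = 0.0104), with 114, 181 and 112 FPKM in resistant larvae and 203, 256 and 252 in sensitive larvae. Obp56b, Obp56c and Obp56h gave log2 differences of 0.40, 0.37 and 0.03, with adjusted p-values of 0.114, 0.273 and 0.961.

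The trio at cluster 83 held both the most negative log2 difference of the members tested and the only rise called both without and with median-of-ratios scaling. Obp83g (3R:6111671-6112302) had 5.32, 7.92 and 12.9 FPKM in resistant larvae, against 76.0, 72.6 and 115.05 in sensitive larvae, a log2 difference of -3.24 ± 0.29 (adjusted p = 0.000195, limma). Counted from the most negative, that placed it at position 55 of the 11055 genes tested. Obp83ef (3R:6109642-6111034), which encodes a protein with a doubled odorant-binding domain, rose: it had 33.8, 42.7 and 49.1 FPKM in resistant larvae, against 17.7, 14.7 and 11.4 in sensitive larvae (log2 difference 1.46 ± 0.20, adjusted p = 0.000608). The strains overlapped for neither gene, so adjacent genes 636 bases apart on the same strand went in opposite directions. Obp83cd, the other gene with a doubled domain, had 3.57, 3.76 and 5.81 FPKM in resistant larvae and 3.65, 3.83 and 3.82 in sensitive larvae and was not called (0.15 ± 0.20, adjusted p = 0.519).

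Among low-level larval genes, Obp73a fell, with 2.58, 3.67 and 3.45 FPKM in resistant larvae and 6.67, 6.14 and 5.40 in sensitive larvae (log2 difference -0.75 ± 0.18, adjusted p = 0.00592, limma); Ogdh, with which it shares exon sequence, had 52.5 to 63.5 FPKM in resistant larvae and 53.9 to 56.0 in sensitive larvae. Adult values of Obp73a were 1.63, 0.80 and 0.48 FPKM in resistant adults and 0.54, 0.89 and 1.04 in sensitive adults. Obp58c, a Plus-C gene, had 4.08, 3.59 and 5.56 FPKM in resistant larvae and 5.82, 6.72 and 6.96 in sensitive larvae and fell, by 0.48 log2 units (adjusted p = 0.0447), but 5 of the 6 leave-one-out fits did not call it, with adjusted p-values of 0.066 to 0.134. Its adult values were 0.40, 0.92 and 1.17 FPKM in resistant adults and 1.40, 0.38 and 0.51 in sensitive adults. Obp50d, another Plus-C gene with at most 0.46 FPKM in adults, had 6.48, 10.6 and 3.38 FPKM in resistant larvae and 2.71, 2.61 and 1.84 in sensitive larvae. Its difference of 1.11 ± 0.32 was called without scaling (adjusted p = 0.0164) and not with it (0.67, adjusted p = 0.154), nor without sensitive larva replicate 3 (0.0589) or resistant larva replicate 1 (0.0658). Obp44a, at 892, 1074 and 1055 FPKM in resistant larvae and 807, 839 and 907 in sensitive larvae, was not called (0.24 ± 0.19, adjusted p = 0.296, limma). A list of 11 glial genes summed to 518 to 845 FPKM in resistant larvae and 231 to 285 in sensitive larvae. Most of each sum came from Gs2, with 749, 579 and 424 FPKM in resistant larvae and 199, 217 and 176 in sensitive larvae. Of the 10 glial genes tested, 6 were called higher without scaling, beside 48.8% of all genes, and 1, Gs2, with it. The part of this list in the Obp44a values was not tested.

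Markers of larval fat body and epidermis moved as well. A list of 9 fat body genes, among them the larval serum proteins, summed to 24371 to 34755 FPKM in resistant larvae. In sensitive larvae the sum was 34201 to 47833, and the ranges overlapped. Of the 9, 7 were called lower, beside 9.84% of all genes. Lsp2, a larval serum protein, and Fbp1 were not called, with log2 differences of 0.37 and 0.40. A list of 22 cuticle genes of the epidermis summed to 46578 to 59316 FPKM in resistant larvae and 71089.5 to 82020.5 in sensitive larvae. Of the 19 tested, 5 were called higher and 9 lower, beside 48.8% and 9.84% of all genes. With scaling 3 were higher and 10 lower, where 19% of all genes were lower. In a list of 27 gut genes, 5 were called higher and 4 lower without scaling, and 1 higher and 5 lower with it. The median log2 difference of the gut genes was 0.02 without scaling. The part of these 3 lists in the larval differences of the odorant-binding proteins was not tested.

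**Figure D3:**
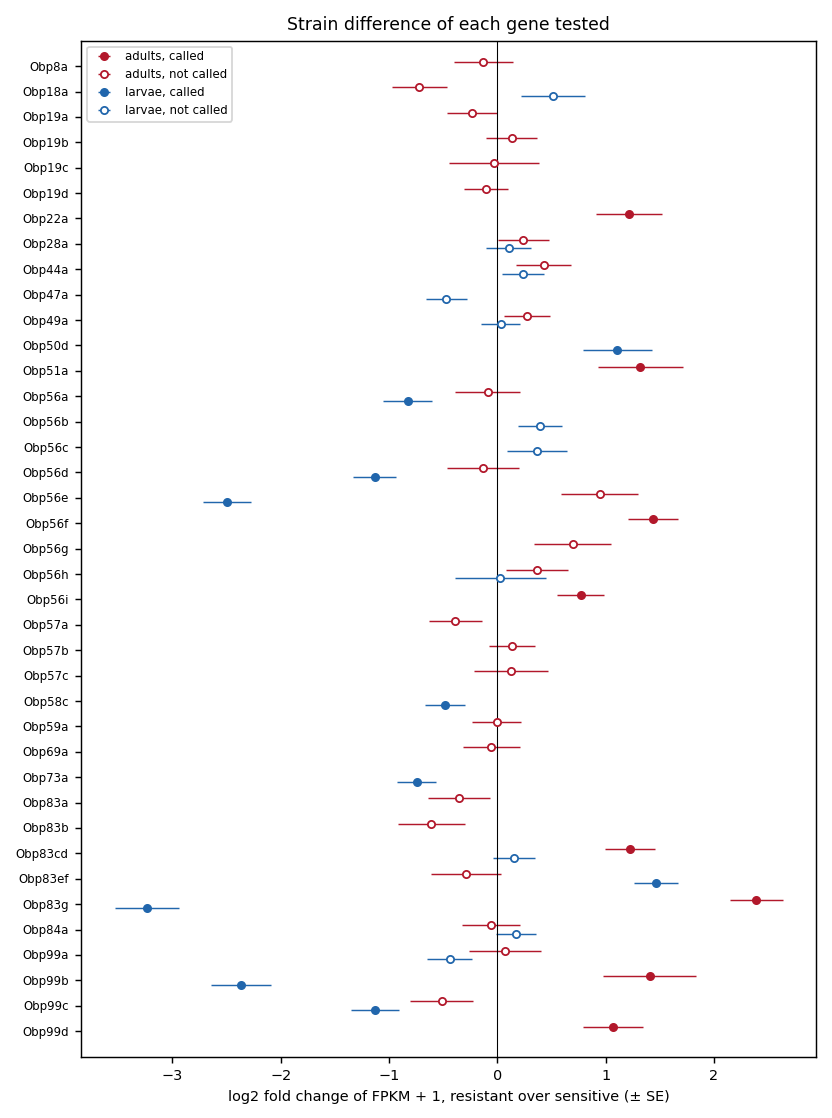
Log2 fold change of FPKM + 1, resistant over sensitive, of each member tested in adults (red) and larvae (blue), with bars of 1 standard error and filled points for calls at an adjusted p under 0.05 without scaling. Larval calls lie mostly left of 0 and adult calls all lie right of it, with Obp83g at the far end on both sides.

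In adults the strain differences that were called were all increases in the resistant strain. Resistant minus sensitive, 8 of the 33 members tested were called higher and 0 lower, where 19.9% of all genes tested were called, 15.9% higher and 3.95% lower (limma, Benjamini-Hochberg over all genes tested). At an unadjusted p under 0.05 there were 10 of the 33 members, beside 3376 of all 11612 genes tested. The median log2 difference was 0.12 over the members and 0.02 over all 11612 genes tested. Median-of-ratios scaling left 4 members called, all higher (Obp83g, Obp83cd, Obp56f and Obp22a), where 15.2% of all genes were called, 11% higher. Leaving out 1 library at a time gave 2 to 7 calls, with 2 without resistant adult replicate 1 and 5 without resistant adult replicate 2 or any 1 of the sensitive adult replicates; without sensitive adult replicate 1, Obp18a was called lower (adjusted p = 0.0214). Obp83g and Obp56f were called each time.

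Obp83g and Obp83cd rose together in resistant adults. Obp83g had 67.3, 42.4 and 67.7 FPKM in resistant adults, against 10.8, 9.30 and 10.6 in sensitive adults, a log2 difference of 2.39 ± 0.25 (adjusted p = 0.000914, limma). Obp83cd (3R:6108134-6109733) had 13.4, 9.45 and 14.4 FPKM in resistant adults and 4.64, 4.69 and 4.62 in sensitive adults, a log2 difference of 1.23 ± 0.23 (adjusted p = 0.00902), and this call was lost without resistant adult replicate 1 (adjusted p = 0.0533). The strains did not overlap for either gene, and the sensitive values were nearly equal to one another. Between them on the chromosome, Obp83ef had 9.74, 4.27 and 9.34 FPKM in resistant adults and 6.65, 10.9 and 10.7 in sensitive adults, with overlapping strains (-0.29 ± 0.32, adjusted p = 0.716).

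Of the 7 members known from seminal fluid, 4 were called higher in resistant adults and 0 lower, beside the 15.9% of all genes called higher. Obp56f had 10.9, 10.1 and 8.13 FPKM in resistant adults, against 2.21, 3.02 and 3.72 in sensitive adults, a log2 difference of 1.44 ± 0.23 (adjusted p = 0.00615, limma). Obp22a had 16.03, 13.8 and 17.2 FPKM in resistant adults, against 3.64, 6.53 and 9.51 in sensitive adults (1.21 ± 0.31, adjusted p = 0.0221); this call was lost without sensitive adult replicate 2 (0.0598) or resistant adult replicate 1 (0.085). Both genes kept the strains apart in all 6 adult libraries, and Obp22a had at most 0.22 FPKM in larvae. Obp56i had 3.49, 3.32 and 2.97 FPKM in resistant adults and 0.94, 1.60 and 2.09 in sensitive adults, and 0.47 to 0.72 in larvae. Obp51a (1.32 ± 0.39, adjusted p = 0.0403) and Obp56i (0.77 ± 0.22, adjusted p = 0.0328) were called without scaling and not with it (adjusted p = 0.0604 and 0.0789), nor in 4 of the 6 fits that left out a library. Obp51a was lost without sensitive adult replicate 1 or 3 or resistant adult replicate 1 or 2 (adjusted p = 0.0677 to 0.151), and Obp56i without sensitive adult replicate 1 or 2 or resistant adult replicate 1 or 2 (adjusted p = 0.0609 to 0.124). Obp56e had 219.9, 162 and 142 FPKM in resistant adults and 48.5, 115.12 and 125 in sensitive adults and did not pass the threshold (0.95 ± 0.35, adjusted p = 0.0979). Neither did Obp56g (0.70 ± 0.36, adjusted p = 0.246) nor Obp8a, whose means were 5.79 FPKM in resistant adults and 6.31 in sensitive adults.

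Most of the accessory gland and testis genes listed were called higher in the same resistant adults. Of all genes tested in adults, 15.9% were called higher and 3.95% lower without scaling. With scaling 11% were higher, and 479 of 11612 were lower. A list of 30 accessory gland genes summed to 6357 to 11896 FPKM in resistant adults and 2389 to 5377 in sensitive adults, with 17 of the 30 called higher, 0 called lower and a median log2 difference of 1.3; none of the 30 was at 0 in all libraries of either group. Genes of the ejaculatory bulb and duct, 7 in all, summed to 9078 to 16492 FPKM in resistant adults and 4414 to 9189 in sensitive adults; the sums overlapped, and 1 of the 7 was called higher. A list of 23 testis genes summed to 1662 to 1888 FPKM in resistant adults and 597 to 935 in sensitive adults, with 15 of the 22 tested called higher without scaling and 12 with it. On the female side, 19 yolk and eggshell genes summed to 14369.6 to 17377 FPKM in resistant adults and 24182 to 24809 in sensitive adults, with 4 called lower without scaling and 2 with it. In sensitive adults the lowest sums of the gland, duct and testis lists all came from replicate 1, as did the lowest sensitive adult value of each of the 7 seminal members. The FPKM total of that library over all genes was the lowest as well. The part of the tissue markers in the differences of the odorant-binding proteins was not tested.

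**Figure D4:**
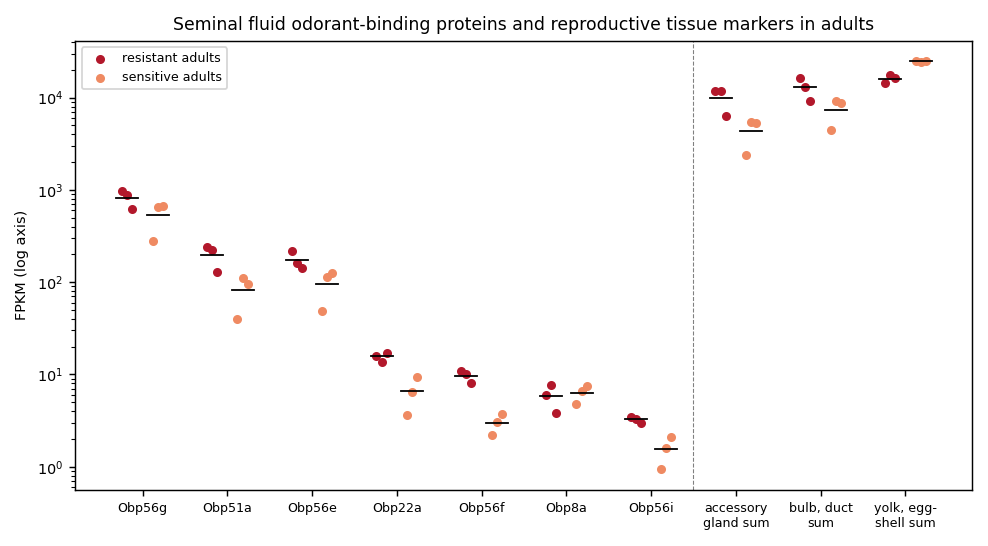
FPKM on a log axis of the 7 seminal fluid members in each adult library (points) with group means (lines), and to the right of the dashed line the summed FPKM of the accessory gland, ejaculatory bulb and duct, and yolk and eggshell lists. Resistant adults lie above sensitive adults for Obp51a, Obp56e, Obp22a, Obp56f and Obp56i and for the gland sum, the strains overlap for Obp56g and Obp8a, and the yolk and eggshell sum is lower in resistant adults.

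In cluster 99, Obp99b and Obp99d were called higher in resistant adults without scaling, and none of the 4 genes was called with it. Obp99b had 409, 361 and 187 FPKM in resistant adults, against 57.9, 173 and 145 in sensitive adults, and the strains were apart by a narrow gap between 187 and 173 FPKM. The log2 difference of 1.41 ± 0.43 was called without scaling (adjusted p = 0.0453, limma) but not with it (0.0651), nor without sensitive adult replicate 1 or 3 or resistant adult replicate 1 or 2 (0.0831 to 0.167). Obp99d, 1249 bases from Obp99b, had 5.30, 2.96 and 7.52 FPKM in resistant adults and 1.98, 1.96 and 1.61 in sensitive adults (1.07 ± 0.28, adjusted p = 0.0245 without scaling and 0.0592 with it), and its call was lost in 5 of the 6 fits that left out a library, all but that without resistant adult replicate 2 (adjusted p = 0.0505 to 0.0884). In larvae Obp99d had 0.17, 0 and 0.87 FPKM in resistant and 0, 0.37 and 0.73 in sensitive animals. The same list of 9 fat body genes, mostly larval products, summed in adults to 275 to 417 FPKM in resistant adults and 112 to 131 in sensitive adults, with 6 called higher without scaling and 5 with it. The 22 cuticle genes summed to 137 to 566 FPKM in resistant adults and 39.3 to 98.7 in sensitive adults, with 10 of the 18 tested called higher without scaling and 5 with it, and 0 lower either way. Of all genes tested in adults, 15.9% were called higher without scaling and 11% with it. The part of these lists in the Obp99b values was not tested. Obp99c, the most abundant adult member, had 1762, 1126 and 1836 FPKM in resistant adults and 1651, 2398 and 2682 in sensitive adults and did not pass the threshold (-0.51 ± 0.29, adjusted p = 0.314).

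None of the 8 antennal members was called between adults of the strains in either direction (limma), beside 19.9% of all genes tested. Besides the antennal genes described above, the 8 took in Obp56d and Obp19a, which is also a gene of cluster 19. Of the 8, 1 had a positive log2 difference. The median over the 8 was -0.10. The furthest from 0 was Obp83b, with 54.8, 61.1 and 36.7 FPKM in resistant adults and 48.7, 94.4 and 97.0 in sensitive adults (-0.61 ± 0.31, adjusted p = 0.246). Its partner Obp83a gave -0.35 ± 0.28 (adjusted p = 0.554) and Obp28a gave 0.24 ± 0.24 (adjusted p = 0.662). The 4 genes of cluster 19 and the 3 expressed genes of cluster 57 were not called either, with log2 differences of -0.24 to 0.13 and of -0.39 to 0.14. Standard errors of 0.20 to 0.41 on the log2 scale limit what these 3 sets could show, so a p above the threshold does not show that the strains were alike.

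Whether the strain difference itself changed with stage was tested over all 12 libraries as the adult difference minus the larval one. Of 40 members tested, 8 had a higher and 2 a lower difference in adults, 25% of those tested, where 29.7% of all genes were called, 9.98% higher and 19.7% lower (limma, Benjamini-Hochberg over all genes tested). The median was 0.21 over the members and -0.30 over all 12270 genes. With median-of-ratios scaling the counts were 12 and 1, where 15.6% of all genes were higher and 7.85% lower. By both fits 8 members were called, where 17.5% of all genes were: Obp83g, Obp99b, Obp56e, Obp56f, Obp51a, Obp83cd, Obp47a and, in the negative direction, Obp83ef. Leaving out single libraries ended the call of Obp51a in 8 of 12 fits, of Obp22a in 8 and of Obp18a in 7. None of the other 7 members called was lost, and the lost calls had adjusted p-values of 0.0528 to 0.0872. Obp56f, Obp51a and Obp22a had at most 0.23 FPKM in any larval library. Their differences largely repeat the adult strain differences of 1.44, 1.32 and 1.21. Obp47a had at most 0.38 FPKM in adults, so its difference rests on low values.

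Obp83g turned round between the stages. Resistant animals had 59.1 ± 14.5 FPKM as adults and 8.71 ± 3.85 as larvae, and sensitive animals 10.2 ± 0.81 as adults and 87.9 ± 23.6 as larvae (SD, n = 3). The difference of the strain effect was 5.63 ± 0.40 (adjusted p = 1.86e-06, limma), position 14 from the top among 12270 genes. The adult level thus exceeded the larval one in the resistant strain (log2 difference 2.67 ± 0.31, adjusted p = 3.13e-05) and was below it in the sensitive strain (-2.96 ± 0.19, adjusted p = 2.54e-06). Obp83g and Obp99b were the members called lower in resistant larvae and higher in resistant adults, a pattern called for 1.12% of the genes tested in both stages (2.32% had opposite calls of either kind); for Obp99b the adult call rested on the unscaled values, and the difference of the strain effect, 3.77 ± 0.55 (adjusted p = 0.000487), held under both.

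Obp56e gave a difference of 3.44 ± 0.46 (adjusted p = 0.000229, limma), from a larval log2 difference of -2.50 and an adult one of 0.95. In the resistant strain its adult level exceeded the larval level by 4.17 ± 0.27 (adjusted p = 1.99e-07), and in the sensitive strain the stages overlapped (0.72 ± 0.34, adjusted p = 0.0834). Obp83cd (1.08 ± 0.29, adjusted p = 0.0158) and Obp83ef (-1.75 ± 0.40, adjusted p = 0.00743) differed in opposite directions, so all 3 genes of the trio at cluster 83 had a strain difference that varied with stage, each in its own way. Obp83g was lower in resistant larvae and higher in resistant adults, Obp83cd was higher in resistant adults, and Obp83ef was higher in resistant larvae.

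Among the remaining calls, Obp18a gave a difference of -1.23 ± 0.41 (adjusted p = 0.0372, limma), which was not called after scaling (0.126); within adults alone it had lower values in every resistant library than in any sensitive one and did not pass the threshold (-0.72 ± 0.25, adjusted p = 0.0778). Obp22a gave 1.06 ± 0.34 (adjusted p = 0.0321), not called after scaling (0.0865). Obp47a, a low gene with 1.27, 1.23 and 1.05 FPKM in resistant larvae and 1.43, 2.20 and 2.56 in sensitive larvae and at most 0.38 in adults, gave 0.87 ± 0.23 (adjusted p = 0.0131).

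**Figure D5:**
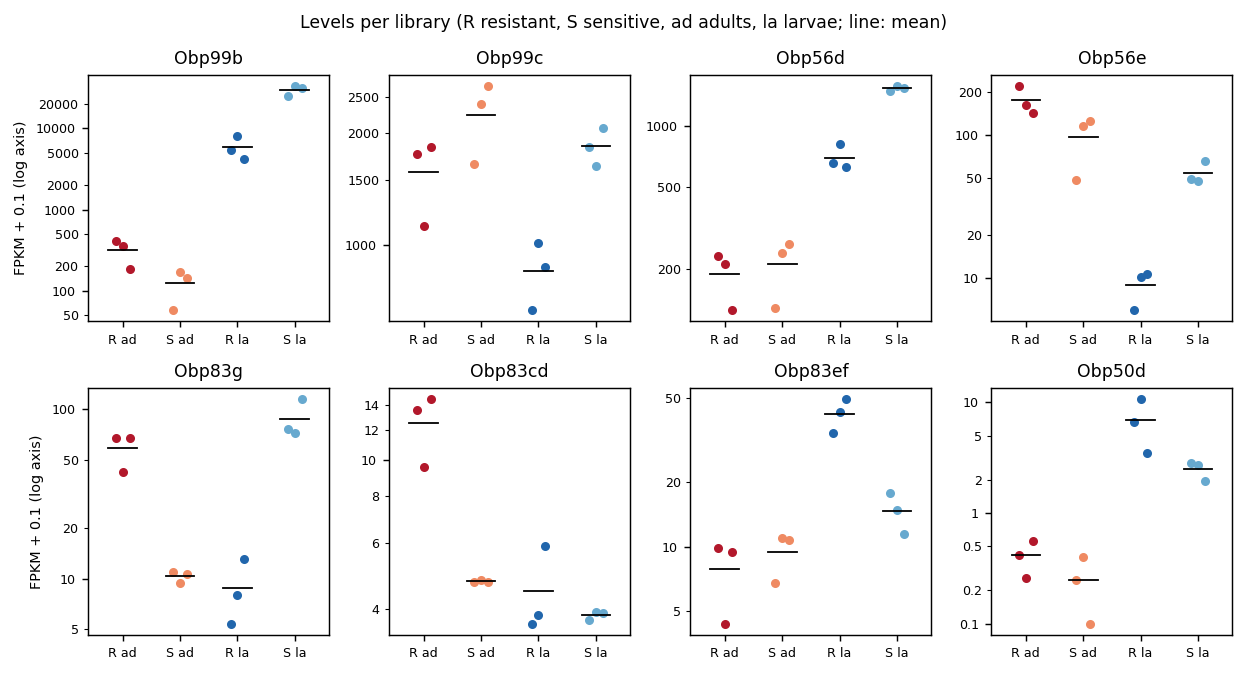
FPKM + 0.1 on a log axis in every library (points) with group means (lines) for 8 members, resistant (R) and sensitive (S), adults (ad) and larvae (la). For Obp83g the resistant adults stand above the sensitive adults and the resistant larvae below the sensitive larvae, and Obp83ef is highest in resistant larvae.

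Odorant receptors and olfactory partner genes were low in these whole bodies. The gene lush, which encodes an odorant-binding protein of pheromone-sensing sensilla outside the naming rule, had 6.02, 6.08 and 6.59 FPKM in resistant adults and 5.17, 4.38 and 4.50 in sensitive adults (adjusted p = 0.32, limma). Orco, the co-receptor of the odorant receptors, had 5.04, 5.13 and 5.35 FPKM in resistant adults and 6.4, 6.06 and 5.92 in sensitive adults (adjusted p = 0.642). Among 10 olfactory partner genes, 4 passed the filter in adults and none of the 4 was called. Of 55 odorant receptor genes, 2 passed it in adults, and the 55 together summed to 14.6 to 16.2 FPKM in resistant adults and 10.6 to 10.9 in sensitive adults. Of these 2, 1 was called higher in resistant adults without scaling and 0 with it, beside 15.9% and 11% of all genes. By comparison, 10 odorant-binding protein genes had means of at least 100 FPKM in resistant adults and 8 did in sensitive adults.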

How the data were processed

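RNA from whole bodies was sequenced in 12 libraries. The authors deposited 1 table of FPKM values for 14001 genes, made with steps that the submitters' processing notes name as FastQC 0.11.9, STAR, RSEM 1.3.3 and edgeR 3.12 on dm6; the role of each and the treatment of strand are not given in the sources used here. FPKM divide by a library's count total, so a few very abundant genes lower the values of all others. The summed FPKM is not fixed and ran from 775870 to 1005446 per library. Reads shared by near-identical genes are assigned by the authors' method. Depth is not stated: in each library 88.8 to 93.0% of low values (498 to 645 genes with 1 transcript) lay within 0.2 of a whole read, where 40% do so by chance, at 11380000 to 12360000 reads.

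Groups follow the labels. Genes with at least 1 FPKM in at least 3 libraries of a comparison were tested on log2(FPKM + 1), so fold changes understate those of low genes, with limma 3.58.1 (mean-variance trend, robust, two-sided) in R 4.3.3 and Benjamini-Hochberg adjustment over all genes tested, at 0.05. The larval, the adult and both stage comparisons used their own 6 libraries and the difference of strain effects all 12. Alternatives were median-of-ratios and common-total scaling, no filter, a block for the replicate number, a pseudocount of 0.1, all libraries in 1 fit, and each library left out with the filter kept. The fitting steps were tested on simulated data. Deviations from the group means correlated at -0.284 to 0.213 between same-numbered libraries of the groups compared, and at up to 0.397 between differently numbered ones. The main fits did not pair libraries by number. With 3 libraries per group this check cannot show whether a number stands for a shared batch.

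The members and gene lists were chosen with earlier results of these data known, and the Plus-C, seminal and antennal sets after the values were seen. Values in every library are given for members with a group mean of at least 5 FPKM or a strain call, except that a stage near 0 is given by its highest value or range, and ranges or counts for the rest. Names and coordinates come from Ensembl release 115.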

Additional observations from a re-analysis of the deposited data

Results flagged for a closer look

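For 10 of the 40 members tested (25%), the strain difference in adults differed from that in larvae, where 29.7% of all genes were called. The test was of the difference itself (limma over all 12 libraries, Benjamini-Hochberg over all genes tested). As adult minus larval log2 difference, the values were 5.63 for Obp83g, 3.77 for Obp99b, 3.44 for Obp56e, 1.44 for Obp56f, 1.42 for Obp51a, 1.08 for Obp83cd, 1.06 for Obp22a and 0.87 for Obp47a. They were -1.75 for Obp83ef and -1.23 for Obp18a. After median-of-ratios scaling, Obp22a and Obp18a were no longer called.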

How the results depend on the processing

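Median-of-ratios scaling moved the count of all genes called between strains in larvae to 3355, against 6484 without it, and the count of members called in adults to 4, against 8. Common-total scaling gave 4 members higher and 7 lower in resistant larvae, where 6610 of all 11055 genes tested were higher and 898 lower. Without the filter 5 members were higher and 7 lower there, where 5567 of 14001 genes were higher and 1151 lower. With the replicate number as a block, the members called were 9 in larvae, 9 in adults, 11 for the difference of strain effects, 37 between stages in the resistant strain and 34 in the sensitive strain, against 10, 8, 10, 36 and 34 without it; same-numbered libraries correlated at -0.203 to 0.213 within the strain comparisons. Leaving out 1 library gave 8 to 10 members in larvae, 2 to 7 in adults, 7 to 12 for the difference of strain effects, 35 to 36 between stages in the resistant strain and 33 to 36 in the sensitive strain. Over all genes the ranges were 4981 to 6356 in larvae, 578 to 2364 in adults (2309 with all libraries, 1198 without sensitive adult replicate 2, 940 without sensitive adult replicate 3, 578 without resistant adult replicate 1), 2126 to 4752 for the difference (3640 with all, 2126 without sensitive larva replicate 3, 2356 without resistant larva replicate 1, 2406 without resistant adult replicate 1), 5062 to 7218 and 7108 to 8588 between stages. With the 20 most abundant genes left out of the total, the family's share was 0.58% in resistant adults and 0.592% in sensitive adults, against 0.433% in resistant larvae and 0.651% in sensitive larvae; the larval shares of the full total were 1.022% and 3.468%. The order of adults and larvae in the resistant strain is thus turned round without those genes, Obp99b among them. No member changed sign among its called differences under the alternatives run. Differences of members near 1 FPKM rest on few reads each.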

Other observations

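Other secreted chemosensory proteins had no strain call in adults. In a list of 23 genes of other secreted chemosensory proteins, 13 passed the filter in adults and 0 were called between strains (limma), beside 19.9% of all genes tested, with a median log2 difference of -0.25. Phk-3, an insect chemosensory protein gene, had 74.0, 69.6 and 80.8 FPKM in resistant adults and 36.0, 61.5 and 51.2 in sensitive adults, against 295, 348 and 292 in resistant larvae and 263, 363 and 357 in sensitive larvae. It was not called between strains in adults (0.62, adjusted p = 0.107) or in larvae (-0.06, adjusted p = 0.799). The antennal gene a10 had 64.0, 76.8 and 57.4 FPKM in resistant adults and 51.4, 74.5 and 65.9 in sensitive adults, with at most 1.11 FPKM in any larval library. CheA7a and CheA75a, of a family expressed in taste bristles, had 31.7 to 49.7 and 23.1 to 39.4 FPKM in resistant adults and 18.9 to 36.0 and 25.3 to 44.4 in sensitive adults, and their strains overlapped.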
